A study of Homo sapiens with 12 samples.

Results

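In RNA sequencing of PANC-1 cells, 157 of the 23284 gene symbols listed were expressed in every degron (−) library and nearly silent in every degron (++) library. They were chosen by 2 limits: FPKM (sequenced fragments scaled to exon length and library size) of at least 5 in all 6 degron (−) libraries and of at most 0.5 in all 6 degron (++) libraries. Of the 173 genes that met these limits, 16 were left out by name, namely 8 HOX genes, 2 MT1 genes, 3 ZNF genes, CD70, PPP1R14A and GSTT1. APOE, also excluded by name, did not meet the upper limit. The difference between the populations chose the genes, so it is described below and was not tested. The opposite rule, with the limits exchanged between the populations, was met by 1 gene, C8orf4. TMPRSS3 and TJP3 missed it by 1 degron (−) library each, at 0.515 and 0.607 FPKM. Their lowest degron (++) libraries were at 5.30 and 5.08 FPKM.

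PANC-1 is a human pancreatic cancer cell line. The cells of both populations were infected with a retrovirus that carries ZsGreen fused to the degron of ornithine decarboxylase and were kept in G418. The proteasome destroys this fusion protein, so that cells with low proteasome activity are green. By the study's methods, degron (−) is the infected line as a whole, in which green cells are rare, and degron (++) is the brightest part of a population enriched from it by repeated sorting and culture. Each population was sampled without irradiation (0 Gy) at 48 h, with 4 Gy at 30 h and with 4 Gy at 48 h, with 2 libraries in each of the 6 groups. The labels give neither the start of the hours nor a statement that libraries of a group came from separate cultures, so p-values measure the spread between these libraries, which may be technical. The libraries taken as degron (−) carry the titles ZsGreen– but the descriptions d+. The study uses degron (+) for the enriched population before the last sort. The titles were followed because the study compares degron (−) with degron (++) cells. The study lists KRT13 at 3.89 FPKM in degron (−). The ZsGreen– libraries at 0 Gy and 48 h were at 4.954 and 2.825 FPKM. Each other degron (−) value of that list also lay between these 2 libraries. By these values, the study used the 0 Gy libraries titled ZsGreen– as degron (−).

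The epithelial keratins KRT8 and KRT18 were at 1658 FPKM or more in all 12 libraries. CDH1, the epithelial cadherin, was at 6.56 to 12.8 FPKM in degron (−) and at 62.8 to 66.6 FPKM in degron (++). Of 15 markers of blood, endothelial, fibroblast, liver, neural crest and pancreatic cells, CD3E and DCN were listed at 0 in all libraries and PTPRC did not exceed 0.055 FPKM. The summed level of the 15 was 38.4 to 55.1 FPKM in degron (−) and 15.4 to 26.5 FPKM in degron (++). Most of it was COL1A1 in degron (−), at 36.5 to 52.3 FPKM, and LUM in degron (++), at 13.8 to 24.7 FPKM. Both are fibroblast markers of this list. COL1A1 was at 0.531 to 0.826 FPKM in degron (++), and LUM at 0.290 to 1.61 FPKM in degron (−). PANC-1 is known to have lost CDKN2A, yet CDKN2A was listed at 11.04 to 21.1 FPKM in degron (−) and at 100 to 112 FPKM in degron (++). The cause was not tested. All values of a degron (−) library summed to between 707273 and 763064 FPKM, and those of a degron (++) library to between 829654 and 916877 FPKM, with MIR622 at 22.5% to 27.1% and 28.6% to 30.0% of the sums. In these bulk samples, fewer cells that express a gene and less RNA per cell cannot be told apart.

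Several kinds of gene in this set have well-known roles. Matrix proteins such as SPARC and the collagens, and proteases such as MMP2, are made in quantity by mesenchymal cells, and ZEB1 is a repressor of epithelial genes. Transcription factors of the PAX, GATA, TBX, FOX, NKX and HMX families set up organs in the embryo and are used in few tissues later. Synaptic and vesicle proteins, ion channels and germ cell proteins are likewise found mainly in particular differentiated cells.

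The member with the highest level was SPARC, a secreted protein that binds collagen. SPARC was at 111 and 99.5 FPKM at 0 Gy and 48 h, at 91.7 and 100 FPKM at 4 Gy and 30 h, and at 105 and 99.2 FPKM at 4 Gy and 48 h in degron (−), while no degron (++) library exceeded 0.098 FPKM. IGFBP2, a binding protein of insulin-like growth factors, was at 74.7 and 79.1, at 87.3 and 82.5, and at 74.0 and 68.0 FPKM in the same order, and at 0.138 FPKM or less in degron (++). These values overlapped between the degron (−) groups for SPARC, whereas both 30 h libraries were above the other 4 for IGFBP2. The first 200 bases before the annotated starts of these genes are given below, with CG dinucleotides in capitals, because these are the members with the widest gap between the populations in FPKM. They were taken from RefSeq on GRCh38.p14, 5′ to 3′ on the strand of the gene.

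SPARC, chr5:151686916-151687115, minus strand: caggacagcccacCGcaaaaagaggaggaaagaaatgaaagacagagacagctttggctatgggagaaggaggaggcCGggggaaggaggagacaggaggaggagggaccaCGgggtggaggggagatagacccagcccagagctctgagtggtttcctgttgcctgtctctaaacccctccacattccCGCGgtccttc

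IGFBP2, chr2:216632628-216632827, plus strand: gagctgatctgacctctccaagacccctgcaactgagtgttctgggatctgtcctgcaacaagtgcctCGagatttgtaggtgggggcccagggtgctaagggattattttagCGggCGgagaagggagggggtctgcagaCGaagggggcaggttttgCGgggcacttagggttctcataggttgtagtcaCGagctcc

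The SPARC window held 5 CG dinucleotides and that of IGFBP2 held 6. In the longer windows of the table, 250 bases before to 50 after the start, neither gene had TATAAA or CCAAT on either strand, and IGFBP2 had GGGCGG. Of all 27305 such windows of 300 bases, 11.95% held TATAAA, 35.7% CCAAT and 44.6% GGGCGG. A window was listed for 100 of the 157 members (63.7%), so no summary over the members is given.

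**Figure D1:**
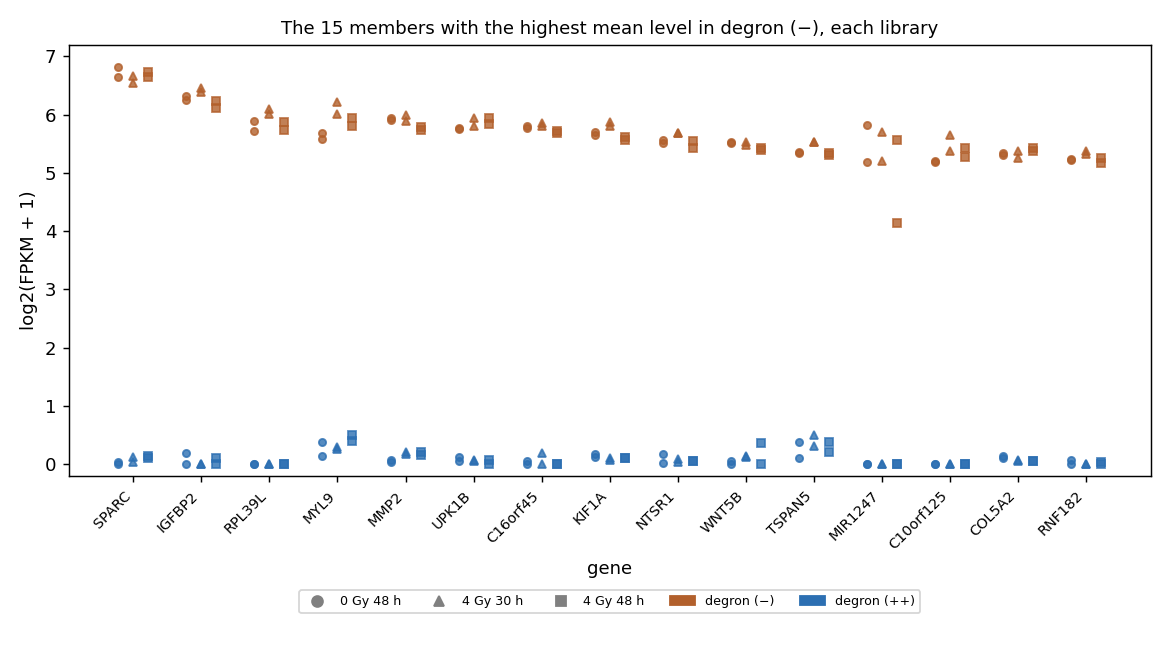
Level of the 15 members with the highest mean in degron (−), as log2(FPKM + 1) on the vertical axis, with 1 point for each library. Circles are 0 Gy at 48 h, triangles 4 Gy at 30 h and squares 4 Gy at 48 h. MIR1247 has the widest spread among the degron (−) libraries, from 16.6 to 55.4 FPKM, and all degron (++) points lie near 0.

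Most members were expressed at moderate levels. The mean over the degron (−) libraries ran from 5.68 to 101 FPKM with a median of 12.6 FPKM, against a median of 20.96 FPKM for the 8563 genes that reached 5 FPKM in all degron (−) libraries. Only 8 members (5.10%) had a mean of at least 50 FPKM, against 22.7% of those 8563 genes. In degron (++), 34 members were listed at 0 in all 6 libraries, 63 were above 0 in all 6, and 60 were mixed. The median member had 0.186% of its degron (−) level in degron (++), and the highest share was 5.30%. A value of 0 was read only as listed at 0, since the number of fragments behind an FPKM is unknown.

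Among the degron (−) libraries, the coefficient of variation over the 6 libraries had a median of 10.1%, against 5.96% for the 8563 genes. The highest library was less than 1.5 times the lowest for 137 members and more than 2 times for MIR1247 and MAP1LC3A. Both limits cut through a continuous range. Just inside the lower limit, the lowest libraries of ONECUT3 and ELMOD1 were at 5.04 and 5.08 FPKM, and just outside, those of RXFP4 and TSPAN18 were at 4.996 and 4.96 FPKM. At the upper limit, the highest degron (++) libraries of MAPK8IP2 and PTPRH were at 0.495 and 0.490 FPKM, and those of MX2 and EFEMP2, just outside, at 0.512 and 0.523 FPKM. IL17RB, with 18.9 to 23.8 FPKM in degron (−), was outside by 1 degron (++) library at 0.531 FPKM.

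The 157 genes were sorted by known function after they had been seen, into 12 groups and 16 genes with no group. Of the 155 placed in the annotation, 148 code for protein. Lists of genes by family and lineage were also searched, and a list's share is given beside 1.83%, the share of members among all 8563 genes. Since the lists were written with earlier results of these data known, no share was tested.

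The extracellular matrix and its handling accounted for 10 members. MMP2, a gelatinase, was at 52.0 to 62.9 FPKM and COL5A2, a fibrillar collagen chain, at 37.2 to 42.1 FPKM in degron (−). MRC2, an endocytic receptor for collagen fragments, was at 22.8 to 28.4 FPKM. COL6A2 and LAMC3, a chain of laminin, were at 8.54 to 11.1 and at 6.16 to 8.39 FPKM and were listed at 0 in every degron (++) library. The group thus holds structural chains, a protease and a receptor for the products of proteolysis. ZEB1 was at 7.84 to 9.84 FPKM. Of 28 matrix and mesenchymal genes that reached the lower limit, 5 were members (17.9%), namely COL5A2, COL6A2, MMP2, SPARC and ZEB1.

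The partners of these proteins did not all go the same way. COL6A1 and COL5A1, which assemble with COL6A2 and COL5A2, had means of 14.7 and 3.94 FPKM in degron (−) and of 2.73 and 0.613 FPKM in degron (++). MMP14, which activates MMP2, and TIMP2, its inhibitor, had higher means in degron (++), at 69.6 and 110 FPKM against 14.7 and 33.5 FPKM in degron (−). The ranges of the libraries of the populations did not overlap for any of these genes. LUM, another matrix gene, was at 0.290 to 1.61 FPKM in degron (−) and at 13.8 to 24.7 FPKM in degron (++).

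A total of 13 members encode secreted signals, their binding proteins or their antagonists. WNT5B, a noncanonical Wnt ligand, was at 40.9 to 44.97 FPKM in degron (−), and SFRP1, which binds Wnt ligands, at 17.98 to 24.3 FPKM. SHH, the Sonic hedgehog ligand, was at 7.33 to 11.4 FPKM and BMP6, a bone morphogenetic protein, at 11.1 to 17.957 FPKM. SLIT3, a guidance ligand for ROBO receptors, was at 14.2 to 16.2 FPKM. CX3CL1 (fractalkine), a chemokine tethered to the membrane, was at 23.9 to 42.5 FPKM, while its receptor CX3CR1 did not exceed 0.057 FPKM in any degron (−) library. Of 34 growth factors and antagonists at the lower limit, 6 were members (17.6%), namely BMP6, IGFBP2, NRG2, SFRP1, SHH and WNT5B. The lists' patterns do not match CX3CL1, so it is in no list.

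Some relatives of the secreted members had the opposite pattern. WNT5A had a mean of 1.05 FPKM in degron (−) and of 8.77 FPKM in degron (++). IGFBP3 had means of 9.12 and 115 FPKM in the same order. Both are secreted proteins of the same families as WNT5B and IGFBP2. PTCH1, the receptor of SHH, was at 1.90 to 2.39 FPKM in degron (−) and at 2.90 to 3.87 FPKM in degron (++).

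Another 18 members are receptors or other surface proteins. UPK1B, a tetraspanin of the bladder lining, was at 53.2 to 60.2 FPKM in degron (−), and NTSR1, the receptor of neurotensin, at 42.0 to 50.7 FPKM. GABBR2, a subunit of the metabotropic GABA receptor, was at 26.7 to 33.6 FPKM and LPAR3, a receptor of lysophosphatidic acid, at 18.1 to 24.9 FPKM. CD40 and IL31RA, receptors best known from immune cells and skin, were at 8.73 to 11.3 and at 5.60 to 7.49 FPKM. No other blood cell gene among the 5 at the lower limit was a member. Of 32 cytokines and their receptors, IL31RA and TNFSF12 were members (6.25%). MERTK, a receptor kinase that recognizes dying cells, was at 7.34 to 10.6 FPKM.

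The members also include 15 neuronal and vesicle proteins and 9 channels and transporters. KIF1A, a motor that carries synaptic vesicle precursors, was at 46.3 to 57.4 FPKM in degron (−). SYTL2 and SYT9, which act in vesicle docking and release, were at 23.7 to 29.8 and at 10.7 to 14.4 FPKM. KCNMA1, a potassium channel, was at 22.6 to 27.9 FPKM, and CACNA1H, a T-type calcium channel, at 15.8 to 20.3 FPKM. GRIN2A, a subunit of the NMDA receptor, was at 5.51 to 7.63 FPKM and was listed at 0 in all degron (++) libraries. Of the 8 genes on the neuronal and neuroendocrine list at the lower limit, GRIN2A alone was a member (12.5%), and 7 of 189 transporters and channels were members (3.70%).

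Next, 14 members are transcription factors or chromatin proteins. TCF7L1, which acts with beta-catenin, was at 24.6 to 33.7 FPKM in degron (−), while its relative TCF7L2 had means of 11.3 and 8.12 FPKM in degron (−) and degron (++). TBX2 was at 15.9 to 19.8 FPKM, GATA5 at 13.6 to 18.6 FPKM, NKX6-2 at 13.0 to 18.98 FPKM, FOXC2 at 11.7 to 15.1 FPKM and PAX2 at 6.84 to 9.08 FPKM. These 5 were members among 40 developmental transcription factors at the lower limit (12.5%). They are known from heart and limb, gut and heart, brain, vessels, and kidney in turn. CHD5, a chromatin remodeler known from neurons, was at 19.1 to 23.7 FPKM, and LRIF1, which binds heterochromatin, at 18.4 to 20.6 FPKM. None of 4 pancreatic lineage factors, 15 zinc finger genes without the ZNF prefix, 6 cadherins or 15 HLA class I and antigen processing genes at the lower limit was a member.

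RNA, translation and germ cells were represented by 7 members. RPL39L, a ribosomal protein variant known from testis, was at 51.5 to 67.3 FPKM in degron (−) and was listed at 0 in all degron (++) libraries. YBX2 and the helicase DDX43, both known from germ cells, were at 20.995 to 30.5 and at 8.16 to 11 FPKM, and SYCP2, a protein of meiotic chromosomes, at 8.58 to 11.7 FPKM. DDX43 and SYCP2 were 2 of 4 germline genes at the lower limit. The ubiquitous relatives were expressed in both populations. RPL39 had means of 163 and 273 FPKM in degron (−) and degron (++), YBX1 of 353 and 455 FPKM, and GSPT1, the relative of the member GSPT2, of 44.0 and 30.6 FPKM. Values of such near copies, and of TUBB2B and STEAP1B beside TUBB2A and STEAP1, are uncertain where reads fit both.

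Kinases and other signalling proteins made up 14 members and metabolic enzymes 19. STK11 (LKB1), the tumour suppressor kinase that activates AMPK, was at 25.6 and 26.1 FPKM at 0 Gy and 48 h, at 24.1 and 25.5 FPKM at 4 Gy and 30 h, and at 23.1 and 23.2 FPKM at 4 Gy and 48 h in degron (−). Its highest degron (++) library was at 0.243 FPKM. STRADA and CAB39, the other subunits of its complex, had means of 9.41 and 34.7 FPKM in degron (−) and of 6.43 and 29.6 FPKM in degron (++). PLCE1 and PLCH2, phospholipases C, were at 20.3 to 27.0 and at 27.8 to 40.6 FPKM. RRAGD, a GTPase of amino acid sensing, was at 8.07 to 10.3 FPKM. ARHGAP4, GEM, MRAS and RGS20 were 4 members among 90 small GTPases and their regulators (4.44%).

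Among the enzymes, NEU1, the lysosomal sialidase, was at 30.6 to 38.8 FPKM in degron (−) and did not exceed 0.044 FPKM in degron (++). CTSA, which holds NEU1 in its active complex, had means of 82.7 and 76.2 FPKM. ELOVL2, which elongates polyunsaturated fatty acids, was at 27.7 to 32.2 FPKM, GAMT, the last enzyme of creatine synthesis, at 22.8 to 32.1 FPKM, and DGAT2, which makes triglycerides, at 14.3 to 19.3 FPKM. GSTM3, GPX7 and CES1 were 3 members among 41 detoxification and redox enzymes (7.32%). Enzymes of the same reaction or family were found in both populations. DGAT1, which acts in the same reaction as DGAT2, had means of 10.5 and 12.9 FPKM. ME1, the cytosolic relative of the mitochondrial malic enzyme ME2, had means of 9.12 and 11.4 FPKM, and GSTM4, a relative of GSTM3, of 17.0 and 20.6 FPKM.

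Cell death and autophagy accounted for 4 members. BNIP3, a mitochondrial protein of mitophagy and cell death, was at 25.9 to 32.6 FPKM in degron (−), and its relative BNIP3L had means of 18.5 and 29.4 FPKM in degron (−) and degron (++). BCL2A1, an antiapoptotic member of the BCL2 family, was at 18.1 to 29.6 FPKM and was listed at 0 in all degron (++) libraries. MAP1LC3A was at 5.61 to 11.6 FPKM, while MAP1LC3B, its relative in the autophagosome, had means of 32.3 and 18.3 FPKM. SCOC, which acts in autophagy, was at 20.6 to 27.0 FPKM. The cytoskeleton and membrane group held 9 members, among them MYL9, the light chain of smooth muscle myosin, at 46.7 to 73.4 FPKM, and ANXA6, an annexin, at 28.6 to 35.2 FPKM.

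A further 9 members are noncoding RNA genes, and 7 of 93 genes on the list of long noncoding RNAs were members (7.53%). MEG3, the maternally expressed RNA of the imprinted region on chromosome 14, was at 26.2 to 31.6 FPKM in degron (−) and was listed at 0 in all degron (++) libraries. It was the 1 member among 18 imprinted genes at the lower limit. HOTAIR, which is transcribed from the HOXC cluster, was at 13.4 to 17.3 FPKM and was also listed at 0 in degron (++). MIR1247 was listed at 35.6 and 55.4 FPKM at 0 Gy and 48 h, at 51.2 and 36.0 FPKM at 4 Gy and 30 h, and at 46.0 and 16.6 FPKM at 4 Gy and 48 h, so that replicates differed more than the groups. Its level is that of fragments at a very short gene in an mRNA library and is not a measurement of the mature miRNA. The mature sequences are shown because MIR1247 is the only small RNA gene among the members, and the seed (bases 2 to 8) is in capitals.

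hsa-miR-1247-5p, chr14:101560362-101560383, minus strand: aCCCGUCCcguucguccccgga

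hsa-miR-1247-3p, chr14:101560326-101560349, minus strand: cCCCGGGAacgucgagacuggagc

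The seeds of these arms differ. WT1-AS, TP73-AS1, MAGI2-AS3 and BOLA3-AS1 are named as antisense genes, and the strand setting of the counting is not given in the sources used here, so that their reads and those of their partners may not be separated.

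**Figure D2:**
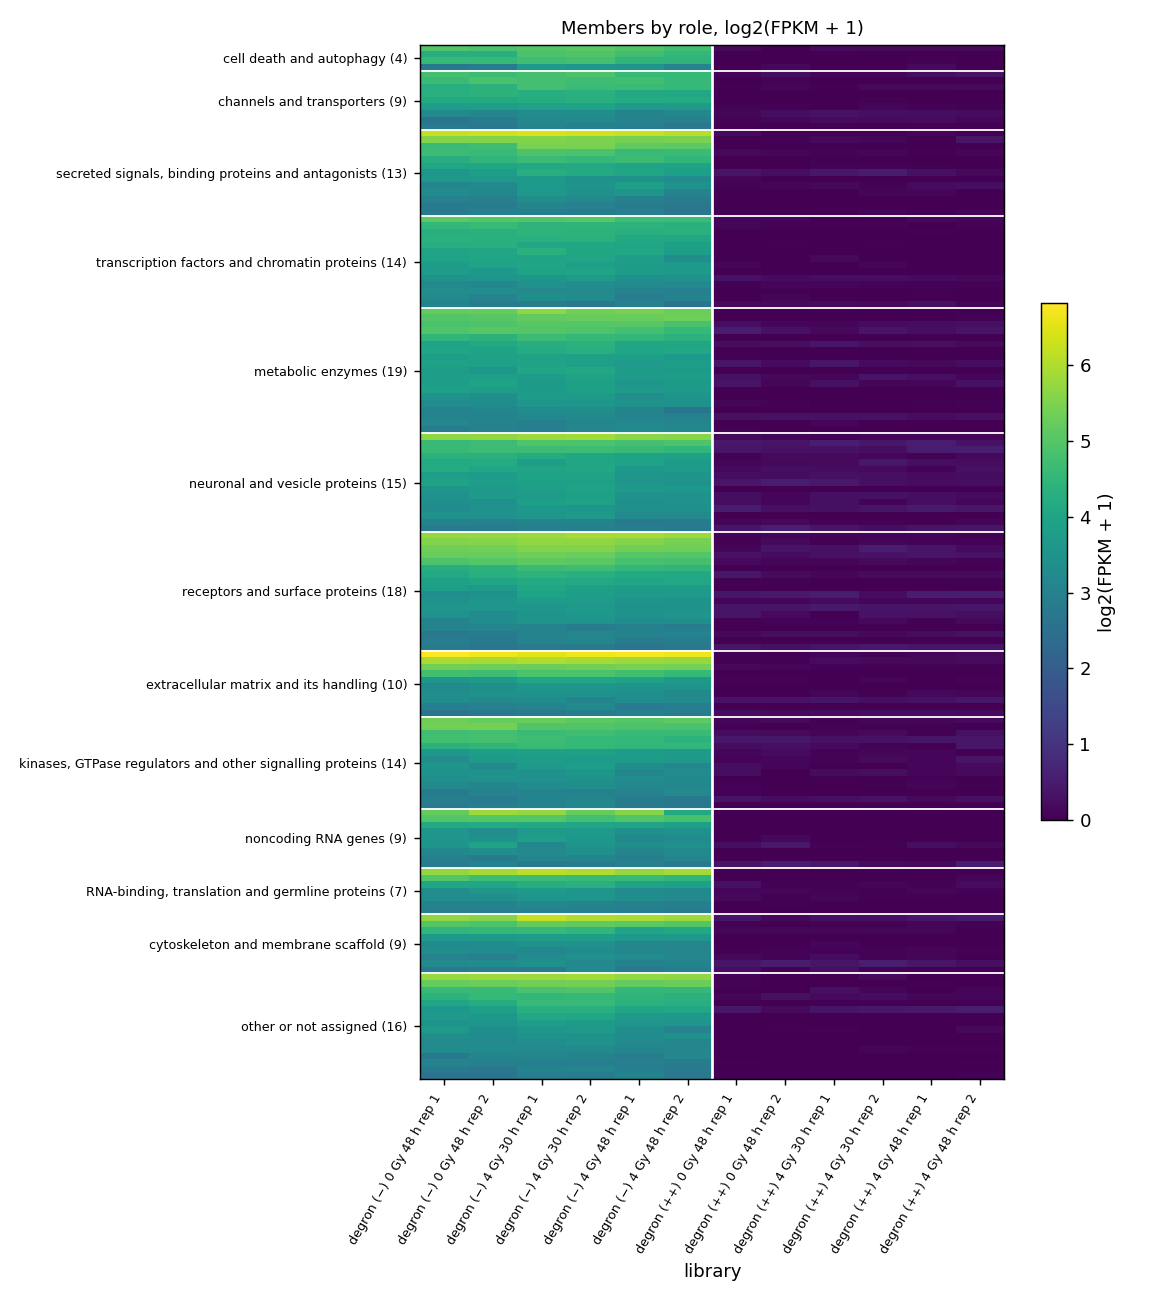
Log2(FPKM + 1) of the 157 members (rows, grouped by role with the number of members in brackets and sorted by level within each group) in the 12 libraries (columns, degron (−) on the left). Every group is high on the left and near 0 on the right, as the rule requires, and levels within a group run from about the lower limit of 5 FPKM to its leading gene, such as SPARC at 101 FPKM on average.

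The members were spread over the genome. Of the 155 that the RefSeq annotation places, between 1 and 13 lay on each of chromosomes 1 to 12 and 14 to 22 and on X, and none on chromosome 13, where 122 genes reached the lower limit. The share of members was highest on chromosome 10, at 3.22% (11 of 342 genes), and lowest, apart from chromosome 13, on chromosome 22, at 0.461% (1 of 217 genes). These shares were not tested.

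**Figure D3:**
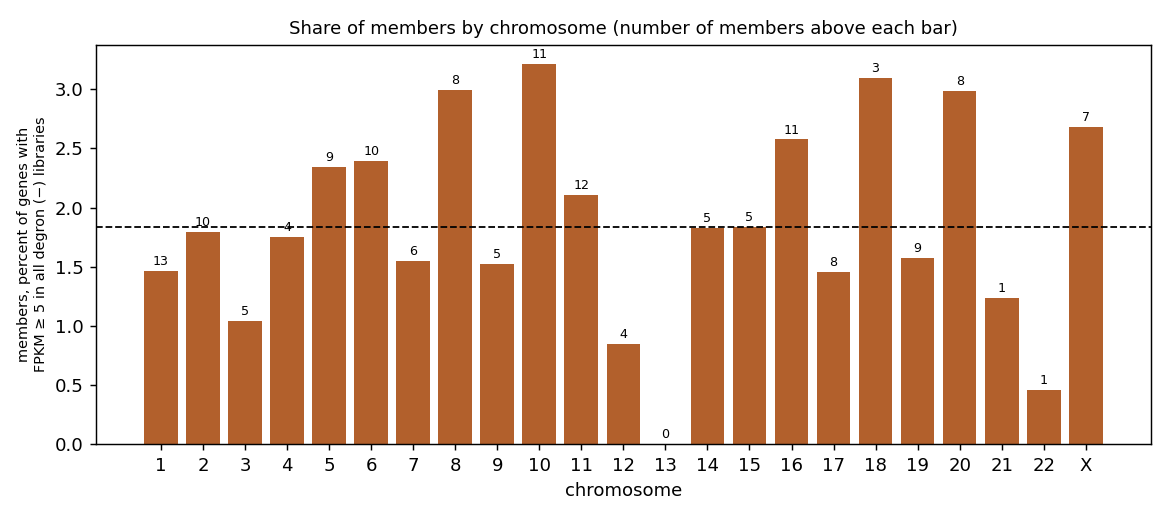
Members as a percent of the genes with at least 5 FPKM in all degron (−) libraries, for each chromosome, with the number of members above each bar. The dashed line is the share over all chromosomes, 1.83%. Chromosomes 10, 18, 8 and 20 have the highest shares, and chromosome 18 holds only 3 members.

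Some members were neighbours. With at most 10 other listed genes between successive members, 37 members fell into 17 runs, of which 2 runs held more than 2 members. In 3 cases, a pair of members had no other listed gene between them, namely HMX3 and HMX2 on chromosome 10, EML1 and EVL on chromosome 14, and MPV17L and C16orf45 on chromosome 16. HMX3 and HMX2, related homeobox genes of the inner ear and brain, were at 9.55 to 15.5 and at 6.35 to 9.45 FPKM in degron (−). BVES and POPDC3, both of the Popeye family of membrane proteins, lay on chromosome 6 with only the antisense gene BVES-AS1 between them, at 5.69 to 7.68 and at 16.2 to 20.1 FPKM. Genes beside some pairs were lower in degron (++) too. Near MPV17L and C16orf45, FOPNL had means of 59.5 and 4.81 FPKM in degron (−) and degron (++). ABCC1 had means of 74.8 and 7.08 FPKM there, and PDXDC1, with similar levels, of 33.4 and 34.0 FPKM. Near BVES and POPDC3, ATG5 had means of 21.2 and 8.81 FPKM, CD24 of 168 and 59.3 FPKM and ASCC3 of 11.1 and 9.77 FPKM.

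The run on chromosome 14 held EML1, EVL, BEGAIN and MEG3. EML1, which binds microtubules, was at 11.4 to 12.7 FPKM, EVL, a regulator of actin filaments, at 7.64 to 10.2 FPKM, and BEGAIN, a synaptic protein, at 13.8 to 19.4 FPKM in degron (−). Genes between them were expressed in both populations: YY1, next to EVL but for DEGS2, had means of 42.1 and 52.2 FPKM in degron (−) and degron (++), and WARS of 48.7 and 59.2 FPKM. DLK1, the imprinted neighbour of MEG3, did not exceed 0.062 FPKM in degron (−) and was listed at 0 in degron (++). The run was therefore interrupted and not a block in which all genes were silent. The windows before the starts of EML1 and EVL are shown to compare 2 neighbouring members.

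EML1, chr14:99737522-99737721, plus strand: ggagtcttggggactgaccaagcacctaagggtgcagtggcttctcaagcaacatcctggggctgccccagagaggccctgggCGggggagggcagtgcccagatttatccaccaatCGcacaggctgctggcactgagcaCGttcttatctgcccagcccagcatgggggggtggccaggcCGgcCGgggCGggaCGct

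EVL, chr14:99971222-99971421, plus strand: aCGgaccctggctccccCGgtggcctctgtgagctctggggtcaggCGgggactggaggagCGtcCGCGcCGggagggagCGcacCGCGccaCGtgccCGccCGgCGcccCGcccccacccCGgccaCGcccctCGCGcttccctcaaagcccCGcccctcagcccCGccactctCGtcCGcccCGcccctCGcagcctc

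The EML1 window held 7 CG dinucleotides and the EVL window 25. The run on chromosome 20 held GATA5, NTSR1 and COL9A3, at 13.6 to 18.6, 42.0 to 50.7 and 7.34 to 9.11 FPKM in degron (−). Of the 4 expressed genes between them, 2 were lower in degron (++). C20orf20 had means of 59.3 and 46.0 FPKM in degron (−) and degron (++), and C20orf166-AS1 of 2.01 and 0 FPKM. SLCO4A1 had means of 33.0 and 39.4 FPKM and OGFR of 38.0 and 65.1 FPKM in the same order, so that this run was interrupted as well.

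In 4 other runs, all expressed genes between the members had lower means in degron (++) too. All 6 expressed genes between BNIP3 and NKX6-2 on chromosome 10 had lower means there, with a median log2 difference of −1.54. INPP5A, a phosphatase of inositol phosphates, had means of 31.5 and 7.91 FPKM, and STK32C of 14.5 and 2.92 FPKM. All 6 expressed genes between LPHN2 and LPAR3 on chromosome 1 were lower as well, with a median log2 difference of −1.86. GNG5, a G protein subunit, had means of 279 and 80.9 FPKM and CTBS, chitobiase, of 18.6 and 2.24 FPKM. The same held for the 3 expressed genes between STK32B and PPP2R2C on chromosome 4, with a median log2 difference of −0.92. It also held for the 2 between ANXA6 and SPARC on chromosome 5, with a median of −0.91. Beside ANXA6 and SPARC, TNIP1 had means of 42.6 and 78.8 FPKM and ATOX1 of 225 and 283 FPKM. CCDC69, between them but not counted as expressed, had means of 0.411 and 0.540 FPKM. Of the 8406 other genes at the lower limit, 53.4% were lower in degron (++), so such counts over few genes show little. In the run of LAMC3 and NTNG2 on chromosome 9, 4 of 9 expressed genes between the members were lower, and the median was 0.80.

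**Figure D4:**
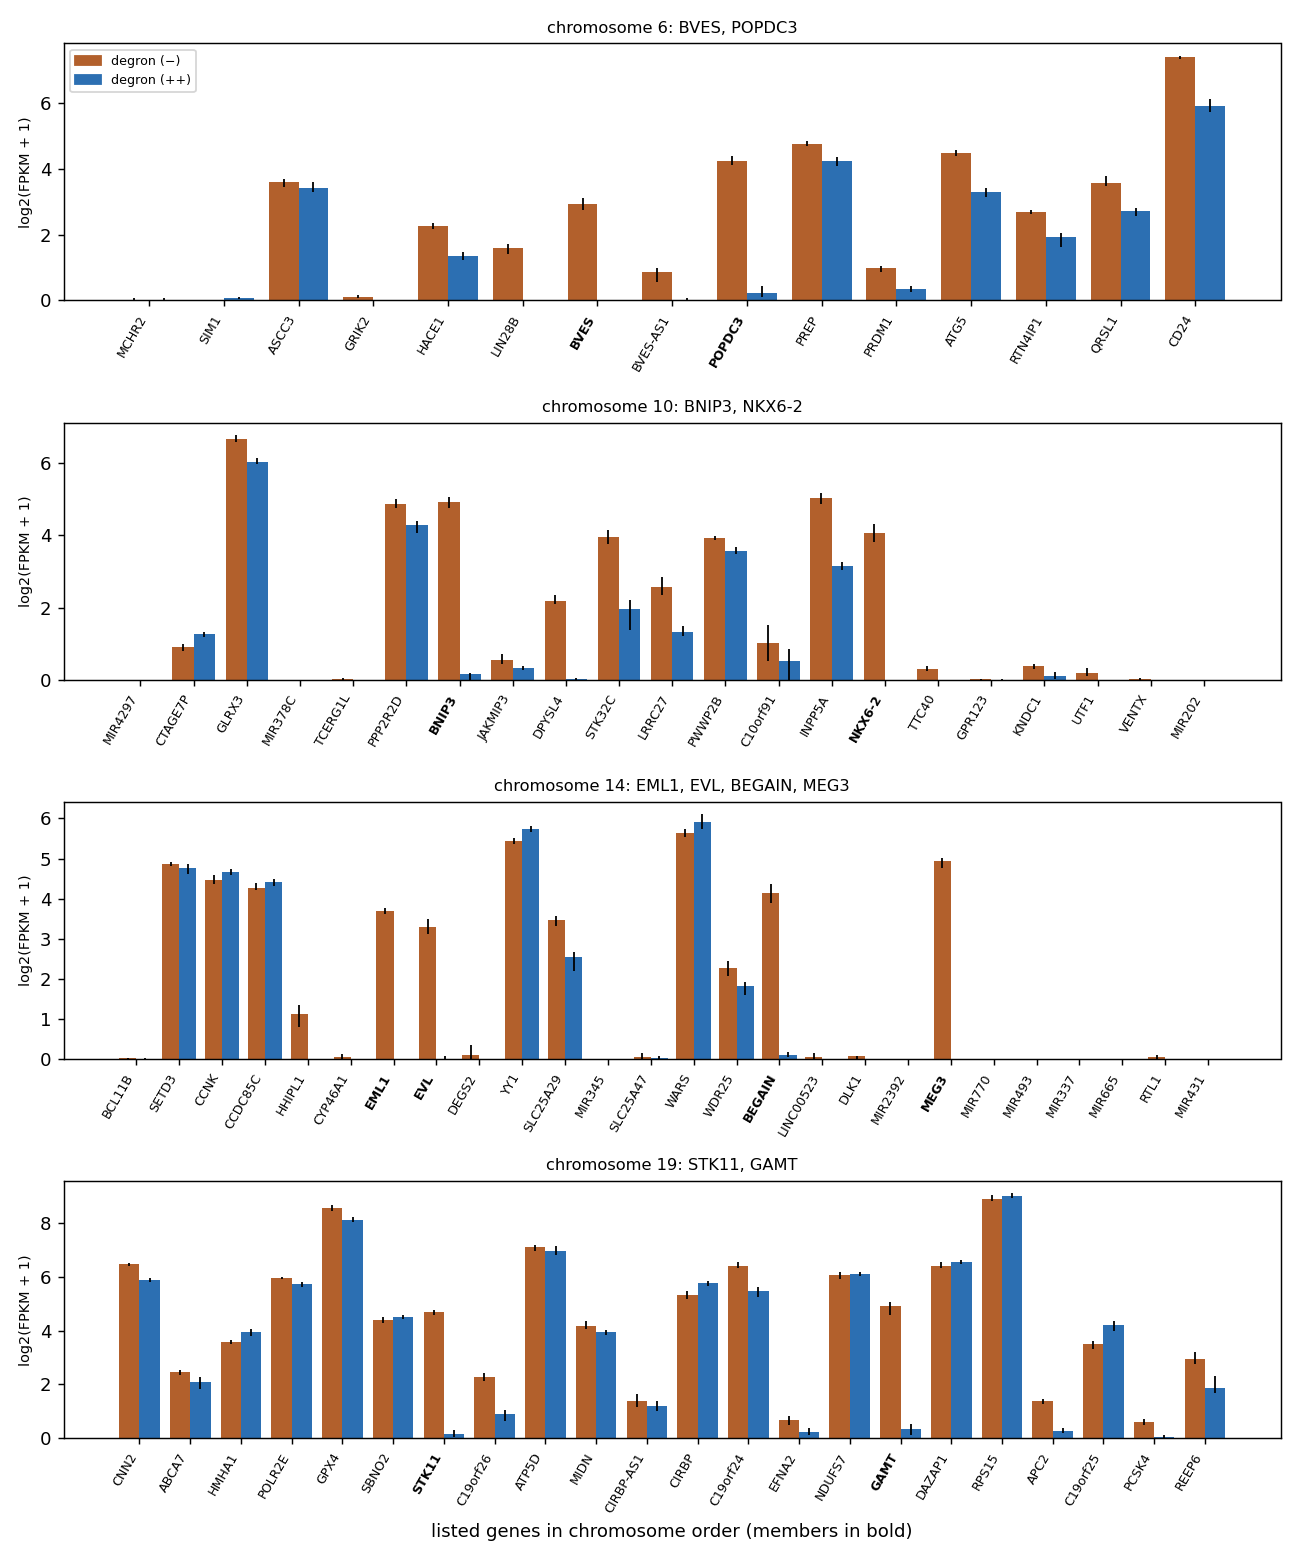
Mean level in degron (−) and degron (++) as log2(FPKM + 1) for the listed genes in and around 4 runs, in chromosome order, with members in bold. Vertical lines run from the lowest to the highest of the 6 libraries of a population. Around STK11 and GAMT, some genes have similar bars in both populations, such as SBNO2 and DAZAP1, and others are lower in degron (++), such as C19orf26 and C19orf24. The genes from BNIP3 to NKX6-2 are lower in degron (++).

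Many members lay between genes with similar levels in both populations, though less often than other genes did. For these nearest neighbours, unlike for the genes within runs, expressed means at least 5 FPKM in all degron (−) libraries. Weaker genes in between were thus passed over. The nearest expressed neighbours on both sides differed by less than 1 (log2) between the populations for 92 of the 155 placed members (59.4%), and for 67.9% of the other genes at the lower limit. By this limit, STK11 lay between SBNO2, with means of 20.2 and 21.6 FPKM in degron (−) and degron (++), and ATP5D, with means of 137 and 124 FPKM. C19orf26, between STK11 and ATP5D but under this limit, had means of 3.85 and 0.875 FPKM. Of the 7 genes between STK11 and GAMT with at least 1 FPKM in at least 2 libraries, 5 were lower in degron (++). Their median log2 difference was −0.18. SCOC lay between SETD7, with 13.8 and 15.6 FPKM, and TBC1D9, with 5.54 and 5.06 FPKM. The median log2 difference, degron (++) minus degron (−), was −0.17 for the 292 nearest expressed neighbours and −0.05 for the 8406 other genes at the lower limit, and 20.2% of the neighbours against 11.9% of these genes were lower by more than 1. The rule used the same contrast, so these are descriptions. The window before the start of STK11, given as the example of a member whose nearest neighbours by this limit had similar levels in both populations, held 31 CG dinucleotides.

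STK11, chr19:1205578-1205777, plus strand: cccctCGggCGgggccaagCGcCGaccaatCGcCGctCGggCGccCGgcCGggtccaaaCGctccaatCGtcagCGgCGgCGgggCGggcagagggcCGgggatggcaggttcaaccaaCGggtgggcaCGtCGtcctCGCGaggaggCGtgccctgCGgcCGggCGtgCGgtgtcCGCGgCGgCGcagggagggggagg

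The contrasts of dose and of time within degron (−) cells were not part of the rule and were tested. The rule does ask for 5 FPKM in each of these libraries, so genes that fell below it in 1 condition are missing. RGAG4 and ADRB1, for example, were left out by the first 0 Gy library, at 4.94 and 4.93 FPKM. There is no 0 Gy library at 30 h, so time in culture and time after irradiation cannot be told apart. Log2(FPKM + 1) was fitted with limma over the 6 degron (−) libraries and 12330 genes with at least 1 FPKM in at least 2 of them. All 157 members passed this filter because the rule requires 5 FPKM in every degron (−) library. The threshold was a Benjamini-Hochberg adjusted p under 0.05 over all 12330 genes. Both comparisons use the 2 libraries of 4 Gy at 48 h, so they are not independent of each other.

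Between 4 Gy and 0 Gy at 48 h, 4 members passed the threshold, against 1.3% of all genes tested. Of these, 1 rose, where 1.1% of all genes tested did, and 3 fell, where 0.195% did. CX3CL1 was at 23.9 and 25.6 FPKM at 0 Gy, and at 34.5 and 33.4 FPKM at 4 Gy. Both irradiated libraries were above both unirradiated ones, and the log2 fold change was 0.44 ± 0.05 (SE, limma adjusted p = 0.0305). PLCH2 was at 39.7 and 40.6 FPKM at 0 Gy, and at 29.1 and 27.8 FPKM at 4 Gy. Its log2 fold change was −0.48 ± 0.04 (SE, limma adjusted p = 0.0199). EFHD1, a calcium-binding protein of mitochondria, was at 21.6 and 22.03 FPKM and at 14.8 and 16.6 FPKM (log2 fold change −0.45 ± 0.07 (SE), limma adjusted p = 0.0468). TCF7L1 was at 33.7 and 31.4 FPKM and at 25.02 and 24.6 FPKM (log2 fold change −0.38 ± 0.05 (SE), limma adjusted p = 0.0405). The groups did not overlap for any of these 4 genes.

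Over all members, the median log2 fold change was −0.06, against 0.00 for all genes tested, with 57 members higher and 100 lower at 4 Gy. The libraries of the groups did not overlap with the member lower for 60 members (38.2%), where 24.1% of all genes did so, and with the member higher for 32 (20.4%), where 27.0% did so. In 9 of the 12 role groups, more members were lower than higher, from 5 of 9 channels and transporters to 8 of 9 noncoding RNA genes. GATA5 was at 17.9 and 18.6 FPKM at 0 Gy and at 15.5 and 13.6 FPKM at 4 Gy (limma adjusted p = 0.0942). BCL2A1, at 18.1 and 18.5 FPKM and at 25.5 and 21.9 FPKM, did not pass the threshold either (limma adjusted p = 0.0913). These counts rest on few libraries. When a library was left out, its partner was taken to vary like the other groups. Without the first or the second 0 Gy library, or the first or the second library of 4 Gy at 48 h, 0 members passed, and without either 30 h library, which enters only the estimate of the spread, 1 did.

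Between 48 h and 30 h at 4 Gy, 14 members passed the threshold, all of them lower at 48 h. Of all genes tested, 2.3% passed, with 0.357% lower and 1.94% higher. Of the 157 members, 145 were lower at 48 h and 12 higher, and the median log2 fold change was −0.19, against 0.00 for all genes. For 121 members (77.1%), both libraries at 48 h were below both at 30 h, where 27.5% of all genes showed this, and for 2 members (1.27%) both were above, where 27.5% of all genes did so. At an unadjusted p under 0.05, 83 members were lower, where 9.2% of all genes were, and 1, CES1, was higher, where 12.7% of all genes were. The summed level of the members was 3044 and 3008 FPKM at 4 Gy and 30 h, 2732 and 2594 FPKM at 4 Gy and 48 h, and 2741 and 2793 FPKM at 0 Gy and 48 h. The 30 h libraries were above the other 4.

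Of the 14 members, 4 were neuronal and vesicle proteins. TUBB2B, a neuronal tubulin, was at 13.3 and 14.0 FPKM at 30 h, and at 9.68 and 9.85 FPKM at 48 h (log2 fold change −0.44 ± 0.05 (SE), limma adjusted p = 0.0251). TUB, PNMA2 and ELFN1 were the other three, with log2 fold changes of −0.40, −0.36 and −0.35. EFHD1 was at 22.8 and 21.4 FPKM at 30 h, and at 14.8 and 16.6 FPKM at 48 h (log2 fold change −0.47 ± 0.07 (SE), limma adjusted p = 0.0349). EVL, the neighbour of EML1 on chromosome 14, was at 10.2 and 9.93 FPKM and at 7.69 and 7.64 FPKM (log2 fold change −0.36 ± 0.06 (SE), limma adjusted p = 0.0417). SCOC was at 25.2 and 27.0 FPKM and at 20.9 and 20.6 FPKM (limma adjusted p = 0.0373). The remaining 7 were LOC100127983, C9orf125, CIB2, RBPMS2, TCF7L1, CX3CL1 and HHIPL2, with log2 fold changes from −0.49 for LOC100127983 to −0.26 for HHIPL2.

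CX3CL1 was highest at 30 h, where both libraries were at 42.5 FPKM, and lower at 48 h with the same dose (log2 fold change −0.32 ± 0.05 (SE), limma adjusted p = 0.0367), though still above the unirradiated cells. TCF7L1 was at 30.5 and 31.8 FPKM at 30 h, near its level at 0 Gy, and lower only in the 48 h libraries of irradiated cells. PLCH2 was at 30.0 FPKM in both 30 h libraries and did not pass the threshold between the times (log2 fold change −0.08, limma adjusted p = 0.343).

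Of the 10 matrix genes, 4, namely SPARC, COL5A2, COL9A3 and ADAM19, had higher means at 48 h than at 30 h, and none of the 10 passed the threshold in either direction. COL5A2 was at 37.2 and 40.4 FPKM at 30 h, and at 42.1 and 40.7 FPKM at 48 h (limma adjusted p = 0.355). All members had lower means at 48 h in 6 of the role groups, namely neuronal and vesicle proteins (15), transcription factors and chromatin proteins (14), channels and transporters (9), the cytoskeleton group (9), RNA-binding and germline proteins (7) and cell death and autophagy (4), and among the 16 genes with no group. Differences between the groups were not tested.

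**Figure D5:**
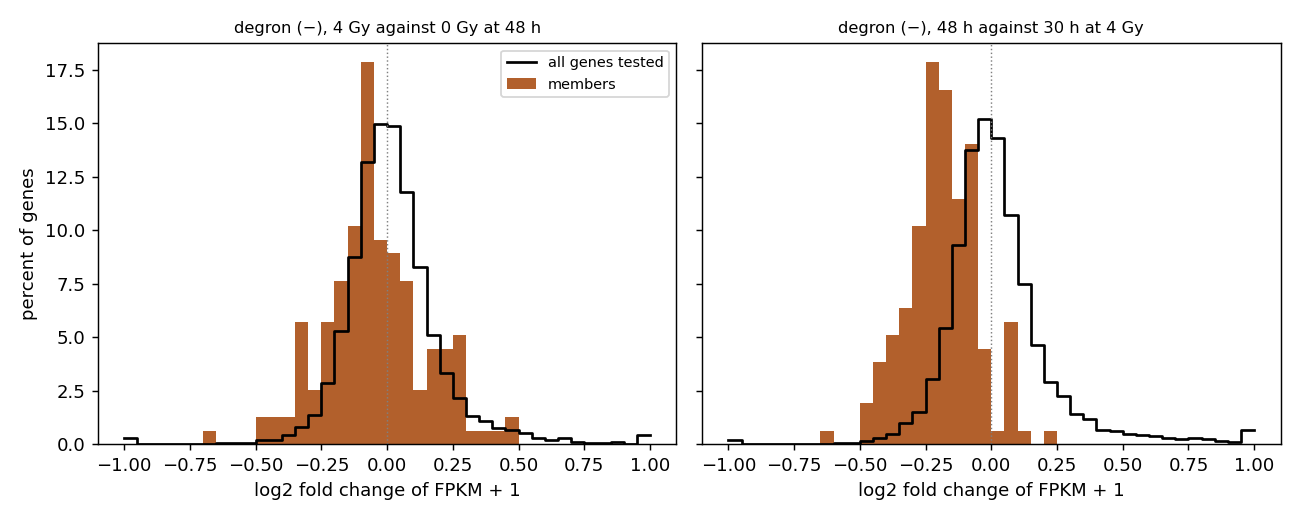
Distribution of log2 fold changes of FPKM + 1 within degron (−), for 4 Gy against 0 Gy at 48 h (left) and 48 h against 30 h at 4 Gy (right), in percent of genes; bars are the 157 members and the line all 12330 genes tested, with values beyond 1 drawn in the last bins. The bars are shifted to the left of the line on the right side, where the median of the members is −0.19 against 0.00.

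Other levels moved with these libraries. The 10 genes that the study lists as high in degron (++), such as KRT13, summed to 14.9 and 9.23 FPKM at 0 Gy and 48 h, to 9.12 and 12.5 FPKM at 4 Gy and 30 h, and to 23.7 and 30.2 FPKM at 4 Gy and 48 h in degron (−), against 263 to 356 FPKM in degron (++). CDKN2A was at 12.4 and 11.04 FPKM at 30 h and at 21.1 and 19.1 FPKM at 48 h after 4 Gy, and CDH1 at 6.56 and 6.79 FPKM and at 11.7 and 12.8 FPKM. The lowest levels of CDKN2A and CDH1 were thus in the libraries with the highest summed level of the members. The part of this in the differences over time was not tested.

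The count over time also rests on few libraries. Without the first or the second 30 h library, 0 members passed the threshold, without the first or the second library of 4 Gy at 48 h, 1 and 0 did, and without the first or the second 0 Gy library, 8 and 7 did. The median log2 fold change of the members stayed between −0.21 and −0.15 in these 6 fits.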

How the data were processed

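Libraries were made with a stranded mRNA kit, and the authors deposited FPKM per gene symbol and library. The submitters' processing notes name hg19, TopHat2 2.1.1, Bowtie2 2.2.8, SAMtools 0.1.18 and Cuffdiff 2.2.1. The deposited FPKM hold no counts, so the depth is unknown; steps between low values put the relative depth at 0.862 to 1.16.

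The members and lists were chosen with earlier results of these data known. Symbols were placed by RefSeq on GRCh38.p14 (21932 of 23284), and only chromosome and order were used. Degron (−) libraries were fitted as log2(FPKM + 1) with limma 3.58.1 (eBayes with trend, R 4.3.3), with 3 group means. Degron (++) libraries were left out of this fit because members vary little near 0. This scale makes changes of genes with low FPKM look smaller. On simulated data, 88% and 87% of 200 genes changed by 1 on the log2 scale were recovered among 12330, with 3 and 5 false calls. The members past the threshold changed by 0.49 at most, and recovery of changes of that size was not simulated. Python 3.11.15, numpy 2.4.6, pandas 2.3.3 and matplotlib 3.10.9 were used.

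Named are the 15 highest members, those of runs, up to 10 past the threshold per comparison, up to 5 per list, those nearest the limits and those with the widest range. Others were chosen for their role after their values were seen, as were all relatives and partners. Some genes that the rules select are not reported here.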

Additional observations from a re-analysis of the deposited data

How the results depend on the processing

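The number of members past the threshold for 4 Gy against 0 Gy was 4; it was 1 with no filter, 1 without the trend in eBayes, 1 with only the libraries compared, 14 in a fit of all 12 libraries, and 0 to 1 when a library was left out. For 48 h against 30 h the number was 14; it was 4 with no filter, 6 with TPM rescaling without MIR622, 7 without the trend, 28 in the fit of all 12 libraries, and 0 to 8 when a library was left out. The causes were not tested. The median log2 fold changes of the members stayed at −0.08 to −0.02 and at −0.23 to −0.15 in all settings. No named member past the threshold changed direction in 288 refitted values, of which 155 were no longer past it. Replicate numbers did not pair the libraries: deviations from the group means correlated at 0.0561, 0.0990 and 0.00931. With the replicate number as a block, 0 members passed in either comparison by limma, and 52 and 78 had an unadjusted p under 0.05, as had 2206 and 2414 of all 12330 genes. Of all genes in that fit, 1 passed between the doses, and 24 higher and 4 lower passed between the times. Limits of 2 and 10 FPKM in degron (−) gave 318 and 86 members, and a limit of 0.1 FPKM in degron (++) gave 87. TPM rescaling with or without MIR622, quantile normalization, a limit of 1 FPKM and leaving out any library gave 134 to 215. Of the 157 members, 147 were kept by TPM rescaling, 132 by TPM rescaling without MIR622 and 134 by quantile normalization. With gaps of 5 and 20 genes, 21 and 67 members fell into runs, and 66 did when only genes at the lower limit were counted. The check of CpG-rich promoter windows was void because 63.7% of the members had a window.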
